A study of Equus caballus with 45 samples.

Results

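Interleukins are secreted signals between immune and tissue cells, and each acts on cells that carry its receptor. The genes described here are the rows of both count tables whose symbol starts with IL and a digit, without IL4I1, which encodes an enzyme. The rule gave 79 genes of the 20881 in each table, namely 38 ligands, 35 receptor chains, 4 genes of decoys (IL1R2, IL13RA2, IL22RA2 and IL18BP) and 2 receptor antagonists (IL1RN and IL36RN). They were followed through 45 RNA-seq libraries of horse cells. Mesenchymal stromal cells (MSC) grown from bone marrow gave 12 libraries. The donors were PC, 99 and 92, and each gave 1 library untreated, 1 after the Toll-like receptor 3 (TLR3) agonist poly I:C, 1 after the STING agonist 2′3′-cGAMP and 1 under the label CpG, a treatment that the protocols do not describe. Synoviocytes, chondrocytes and macrophages derived from blood monocytes gave 11 libraries each, and each of these 3 cell types came from 1 horse. In each type 9 libraries were from cells given IL-1β and TNF-α together with medium conditioned by MSC that were resting (resting MSC-CM) or had received the TLR3 or STING agonist (TLR-MSC-CM, STING-MSC-CM), from the MSC donors PC, ORC and AG1. The other 2 libraries of each type, 1 with the cytokines only and 1 with no addition, had no replicates. Since 1 horse gave each joint cell type, the 3 libraries of a group are cultures that differ in the MSC donor of the medium, and p-values measure the spread between these cultures, not between horses. Agonists were applied for 2 h. The labels state 10 ng/ml for them and the design text 10 μg/mL. For the cytokines the labels state 20 ng/ml for synoviocytes and chondrocytes and 10 ng/ml for macrophages, while the methods state 20 ng/mL for macrophages too. Cells stayed in the medium for 24 h and were then washed and cultured for 24 h more.

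As background, IL-1α and IL-1β signal through IL1R1 with the shared chain IL1RAP. IL1RN, the IL-1 receptor antagonist, occupies IL1R1 without a signal, and IL1R2 binds IL-1 but lacks the signalling domain. IL-18 is held in check by the secreted binding protein IL18BP, and IL-33 acts through IL1RL1, also known as ST2. IL-6, IL-11 and related cytokines share the signalling chain IL6ST (gp130), the cytokines of the IL-2 group share IL2RG, and IL-4 and IL-13 act through IL4R with IL13RA1 while IL13RA2 serves as a decoy for IL-13. In joints, IL-1β and TNF-α are known to drive inflammatory gene expression in synovium and cartilage, which is why they were used here as the stimulus. No sequences of these genes were used here.

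Between 23525704 and 54103873 reads were counted per library. Levels are given as CPM, the count scaled to the library total, which depend on transcript length, so they are compared between libraries and never between genes. Values of up to 3 counts are called at or under the floor, a limit of 0.0554 to 0.1275 CPM, and floors and intervals cover counting error only. The labelled cell types were checked against their markers. In macrophage libraries all 11 of the macrophage markers found in the tables were over the floor, with CD68 at 3541 to 4303 CPM against 9.42 to 38.3 CPM in chondrocytes and 10.99 to 17.99 CPM in synoviocytes. The same macrophage libraries held all 5 T cell markers of the list, at a summed 269.5 to 492.2 CPM, and all 3 natural killer cell markers, at 34.4 to 96.9 CPM, so that values of lymphocyte genes in them belong to a mixed culture. Chondrocyte libraries lacked 2 defining cartilage genes, COL2A1 being at no more than 0.368 CPM and COL9A1 at no more than 0.0376 CPM, while ACAN was at 6.12 to 101 CPM. In chondrocytes the 3 libraries given medium of MSC donor ORC stood apart from the rest, and results that rest on them are given with and without them. In bulk samples, fewer cells of a type and less RNA per cell cannot be told apart.

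**Figure D1:**
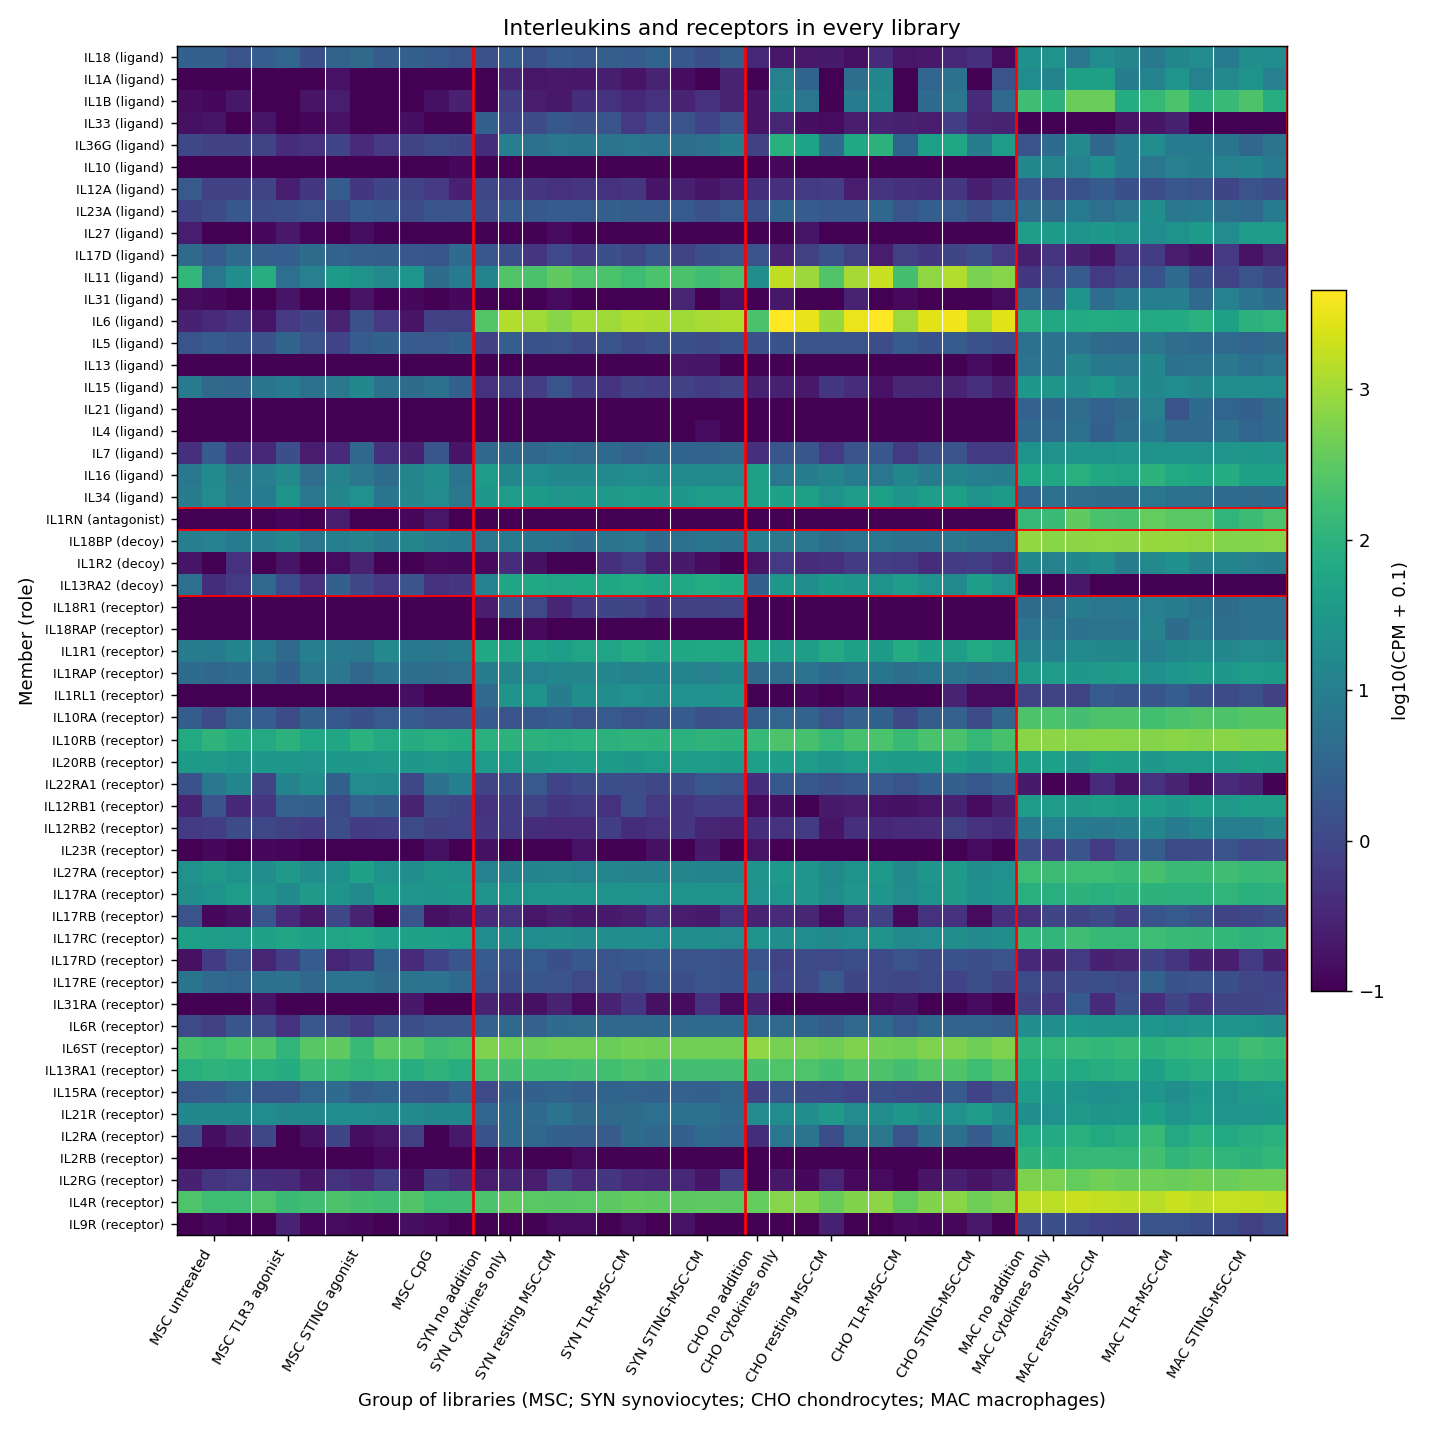
Heat map of log10(CPM + 0.1) for the 54 genes that reached a mean of 1 CPM in at least 1 group, with a column for each of the 45 libraries grouped by cell type and condition and a row for each gene sorted by role (colours compare along a row only). The 11 macrophage columns on the right hold IL1RN, IL10, IL27, IL2RB and IL2RG, which are dark elsewhere, while IL6, IL11 and IL13RA2 are bright in stimulated synoviocytes and chondrocytes, with 3 dimmer chondrocyte columns for donor ORC.

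Macrophage cultures had the most interleukin genes over the floor. There 52 of the 79 genes were over the floor in every one of the 11 libraries, against 36 in synoviocytes, 30 in chondrocytes and 30 in the 12 MSC libraries. The share of all genes over the floor was not counted for any cell type. Macrophage cultures also held T and natural killer cell markers, and the part of those cells in these counts was not tested. Among the 38 ligands, 19 were over the floor in every macrophage library, 12 in every synoviocyte library, 10 in every chondrocyte library and 10 in every MSC library. Receptor chains were more widely present, with 30 of 35 in every macrophage library, 22 in every synoviocyte library and 18 each in every chondrocyte and MSC library. In all, 19 of the 79 genes had a mean below 0.3 CPM in every group and 1 was at 0 in every library. IL7R, the receptor for the lymphocyte growth factor IL-7, was at 0 in every MSC, synoviocyte and chondrocyte library. It was nearly absent from macrophage libraries as well, with 0 to 4 counts. IL12B, the p40 chain of IL-12 and IL-23, was at 0 in all synoviocyte and chondrocyte libraries.

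The 3 joint cell types were compared under the same resting MSC-CM, with 3 libraries per type, by edgeR's quasi-likelihood test over all genes. Each type came from a single horse. The methods speak of 1 donor horse for the joint cells, while the labels do not say whether all types shared it. A difference between horses was therefore not tested. By the labels the cytokine dose also differed, being 10 ng/ml for macrophages and 20 ng/ml for synoviocytes and chondrocytes. The methods state 20 ng/mL for macrophages too. The part of any difference in dose in the differences between cell types was not tested. Of the 66 interleukin genes tested, 47 (71.2%) were higher in macrophages than in synoviocytes and 12 lower at an adjusted p under 0.05, where over all genes 36.6% were higher and 35.1% lower. Against chondrocytes the counts were also 47 and 12, where 36.6% of all genes were higher and 34.9% lower. For 23 genes over the floor in at least 1 macrophage library, all synoviocyte libraries were at or under it. The same held for 20 genes with chondrocytes, and the reverse for 2 genes in each comparison. Some of these genes had few counts, such as IL36A with 0, 0 and 6 in macrophages for AG1, ORC and PC. The share among all genes was not computed. A gene seen in macrophages alone could pass the filter on low counts only through them, so the counts describe which genes each culture contained. Chondrocytes and synoviocytes differed in fewer genes, 9 being higher in chondrocytes and 10 lower, where over all genes 8.31% were higher and 9.84% lower.

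IL1A, IL1B and the antagonist IL1RN were highest in macrophages under this medium. IL1B was at 411, 413 and 77.1 CPM in macrophages given media of the donors AG1, ORC and PC, against 0.126, 0.11 and 0.31 CPM in synoviocytes and 6.71, 0 and 8.6 CPM in chondrocytes. The macrophage value for donor PC was far below the other 2, yet no macrophage library overlapped those of the other cell types. IL1B was higher in macrophages by 10.62 ± 1.35 (SE) on the log2 scale than in synoviocytes (edgeR adjusted p = 3.69e-05) and by 5.84 ± 0.97 than in chondrocytes (adjusted p = 0.000287). IL1A followed the same order, with 44.3, 44.3 and 9.54 CPM in macrophages, 0.0948 to 0.11 CPM in synoviocytes and 3.1, 0 and 4.69 CPM in chondrocytes. IL1RN, which blocks IL-1 at its receptor, was at 335, 210 and 200 CPM in macrophages and had no read in any of the 11 synoviocyte or 11 chondrocyte libraries. With the floor of 3 counts per library as the bound, IL1RN was at least 2420-fold higher in macrophages than in synoviocytes and at least 2510-fold higher than in chondrocytes. IL36G, an IL-36 ligand known from epithelium, differed from these genes, since chondrocytes had 49.5, 4.17 and 59.9 CPM for AG1, ORC and PC and macrophages 15.8, 3.53 and 8.4 CPM.

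Receptors of the IL-1 family were divided between the cell types. The signalling receptor IL1R1 was at 40.2 to 51.9 CPM in synoviocytes, 40.5 to 71.9 CPM in chondrocytes and 14.4 to 16.8 CPM in macrophages, and was lower in macrophages by 1.67 ± 0.22 on the log2 scale than in synoviocytes (edgeR adjusted p = 4.47e-05). Its partner IL1RAP went the other way, with means of 33.0 CPM in macrophages, 12.6 CPM in synoviocytes and 5.16 CPM in chondrocytes, each pair differing (adjusted p of 0.000168 or below). The decoy receptor IL1R2 was at 8.90 to 18.8 CPM in macrophages, at 0.294 to 0.554 CPM in chondrocytes and at or under the floor in synoviocytes. IL1RL1, the receptor for IL-33, was a synoviocyte gene, with 24.2, 8.81 and 20.5 CPM for AG1, ORC and PC against 0 to 0.0326 CPM in chondrocytes and 0.792 to 2.08 CPM in macrophages. It was at least 180-fold higher in synoviocytes than in chondrocytes. IL33 itself was also higher in synoviocytes, at 1.14 to 1.84 CPM, than in chondrocytes, by 4.19 ± 0.70 on the log2 scale (edgeR adjusted p = 0.00219), and was at or under the floor in macrophages.

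The IL-18 axis had its binding protein at a high level in macrophages. IL18BP, which keeps IL-18 from its receptor, was at 708, 726 and 722 CPM in macrophages and at 4.17 to 6.63 CPM over the 6 synoviocyte and chondrocyte libraries, a log2 difference of 7.04 ± 0.19 from synoviocytes (edgeR adjusted p = 4.85e-10). The 3 macrophage libraries lay close together, with an SD of 9.18 CPM around a mean of 718.8 CPM. IL18 was at 7.05 to 18.2 CPM in macrophages, 1.39 to 2.13 CPM in synoviocytes and 0.0652 to 0.119 CPM in chondrocytes. Both receptor chains were over the floor in macrophages, IL18R1 at 6.80 to 8.79 CPM and IL18RAP at 5.69 to 6.08 CPM. IL18R1 had no read in any chondrocyte or MSC library. Since T and natural killer cells carry this receptor, the marker sums given above stand beside these values, and their part in the result was not tested.

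**Figure D2:**
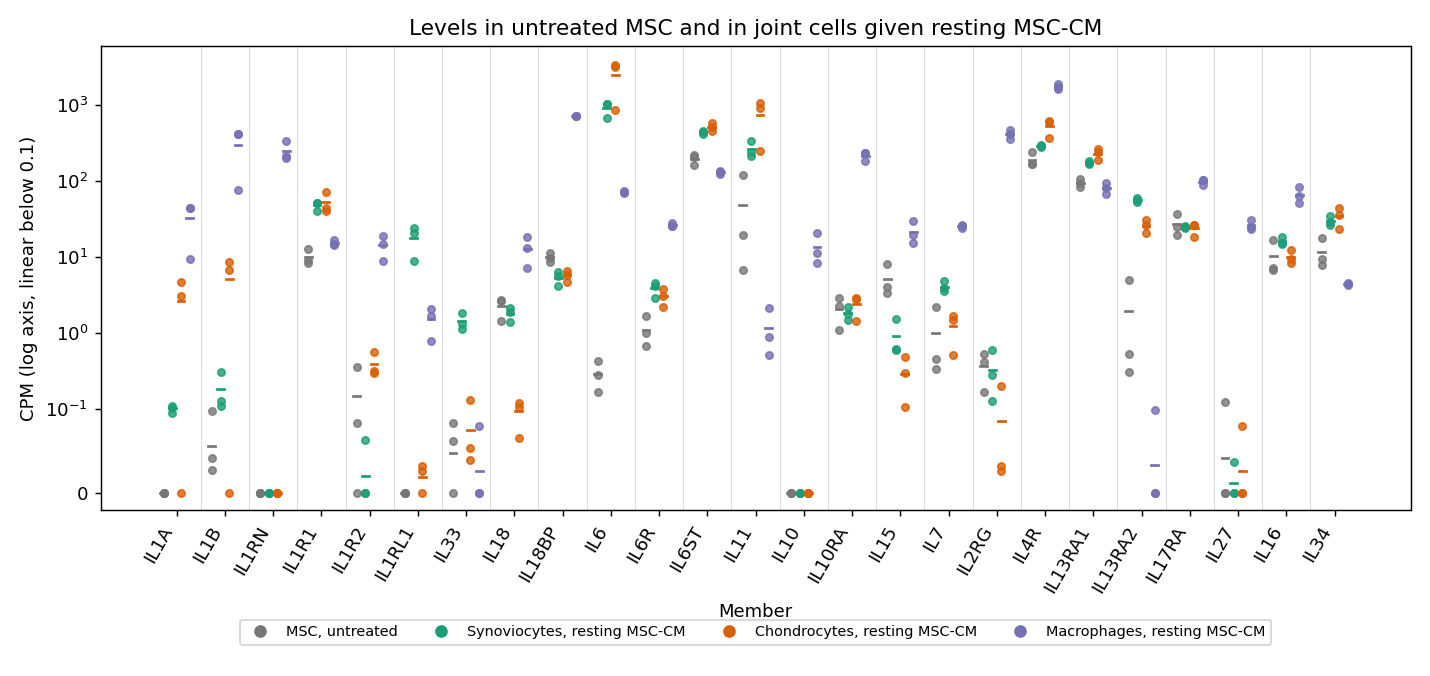
Levels of 25 genes in CPM (log axis, linear below 0.1) in untreated MSC and in synoviocytes, chondrocytes and macrophages given resting MSC-CM, with a point per library (n = 3 per group) and a bar at the mean. IL1B, IL1RN, IL18BP, IL2RG and IL10RA are highest in macrophages, IL6, IL11 and IL13RA2 in synoviocytes and chondrocytes, and IL1RL1 in synoviocytes.

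The 3 ligands of the IL-6 family were split, IL6 and IL11 being higher in the stromal joint cells and IL31 in macrophages. IL6, the main pro-inflammatory cytokine of this group, was at 1045, 671 and 1023 CPM in synoviocytes and 3181, 863 and 3391 CPM in chondrocytes for AG1, ORC and PC, but at 71.8, 74.2 and 69.3 CPM in macrophages. Macrophages were lower by 3.70 ± 0.45 on the log2 scale than synoviocytes (edgeR adjusted p = 2.49e-05) and they differed from chondrocytes by -5.12 ± 0.48 (adjusted p = 3.21e-06). IL11 was at 213 to 334 CPM in synoviocytes, 250 to 1061 CPM in chondrocytes and 0.51 to 2.10 CPM in macrophages. IL31, a T cell cytokine, was at 25.5, 4.59 and 7.44 CPM in macrophages, at least 122-fold higher than in synoviocytes, which had 0, 1 and 0 counts. The shared chain IL6ST was lower in macrophages as well, at 124 to 137 CPM against 412 to 454 CPM in synoviocytes and 449 to 582 CPM in chondrocytes. The IL-6 binding chain IL6R showed the opposite order, with 25.6 to 27.8 CPM in macrophages, 2.87 to 4.54 CPM in synoviocytes and 2.22 to 3.81 CPM in chondrocytes, so ligand and binding chain were high in different cells.

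The group of the common gamma chain was counted together with IL13, IL13RA1 and IL13RA2, although IL-13 shares IL4R with IL-4 and not the gamma chain. Of these genes 14 of 16 tested were higher in macrophages than in synoviocytes and 2 lower, beside 36.6% and 35.1% of all genes. IL2, IL4, IL9, IL13 and IL21 had no read in synoviocytes under this medium, and IL9 was not called with the MSC donor as a block (edgeR adjusted p = 0.0784). IL2RG, the common chain itself, was at 356, 472 and 413 CPM in macrophages and at 0.126 to 0.588 CPM in synoviocytes. IL2RB, a chain of the IL-2 and IL-15 receptors, was at 129, 131 and 125 CPM in macrophages and had at most the floor in the stromal cells. IL4R was present in all cell types, at 1647 to 1917 CPM in macrophages, 371 to 616 CPM in chondrocytes and 280 to 300 CPM in synoviocytes, and each pair differed (edgeR adjusted p of 0.00753 or below). The 2 lower genes were those of the IL-13 receptors, IL13RA1 and IL13RA2. IL13RA1 was at 67.2 to 94.2 CPM in macrophages against 166 to 182 CPM in synoviocytes and 186 to 263 CPM in chondrocytes. The decoy IL13RA2 was at 53.6 to 59.5 CPM in synoviocytes and 20.6 to 31.1 CPM in chondrocytes. In macrophages it was at 0 in 2 of 3 libraries and at 0.099 CPM, or 4 counts, in the AG1 library. The log2 difference from synoviocytes was -10.38 ± 0.40 (edgeR adjusted p = 3.81e-09). With so few macrophage counts its size is loose, and it ran from -13.75 to -9.77 with 1 library left out. IL15, a growth factor for natural killer and memory T cells, was at 15.5 to 29.4 CPM in macrophages and 0.107 to 1.54 CPM in the stromal cells. The T cell cytokines IL4, IL13 and IL21 were at 2.59 to 5.07, 7.28 to 13.1 and 2.85 to 4.50 CPM in macrophage cultures and had no read in synoviocytes or chondrocytes given resting MSC-CM. They were measured in cultures whose summed T cell markers were at 281 to 324 CPM, and the part of those cells was not tested.

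In the IL-10 family 7 of 10 genes tested were higher in macrophages than in synoviocytes and 1 lower, beside 36.6% and 35.1% of all genes. Few counts were found in macrophages given media of AG1, ORC and PC for IL22 (6, 8 and 12), IL22RA2 (18, 2 and 12) and IL26 (7, 3 and 5). IL20RB had means of 36.2, 37.0 and 34.3 CPM in macrophages, synoviocytes and chondrocytes. IL10, an anti-inflammatory cytokine, was at 11.3, 20.8 and 8.21 CPM in macrophages and had no read in the other 2 types under this medium, which makes it at least 131-fold higher than in synoviocytes. Its ligand-binding chain IL10RA was at 184 to 233 CPM in macrophages, against 1.48 to 2.17 CPM in synoviocytes and 1.43 to 2.91 CPM in chondrocytes. IL10RB, the chain that several receptors share, was at 657 to 675, 84.9 to 98.0 and 128 to 204 CPM in macrophages, synoviocytes and chondrocytes. All 8 IL-12 family genes tested were higher in macrophages than in each stromal type, beside 36.6% of all genes in each comparison, among them IL27 at 23.3 to 30.7 CPM, IL12RB1 at 32.6 to 41.1 CPM and IL27RA at 147 to 166 CPM. IL12B had only 5, 4 and 1 counts in macrophages, at least 1.04-fold higher than in synoviocytes, and was not called with the MSC donor as a block (edgeR adjusted p = 0.0875 and 0.0844), nor was IL26 of the IL-10 family (0.0568 and 0.0531). IL22RA1, a chain of the IL-22 receptor, was lower in macrophages, at 0.0248 to 0.255 CPM against 1.31 to 1.84 CPM in chondrocytes (edgeR adjusted p = 0.00022). In the IL-17 family the ligands IL17A and IL17F were below 0.3 CPM everywhere, while the receptor chains IL17RA and IL17RC were over 15 CPM in every joint cell library. IL17RC was at 128 to 173 CPM in macrophages and at 15.7 to 20.1 CPM in the stromal cells. IL34, an alternative ligand of the M-CSF receptor, was at 26.4 to 34.96 CPM in synoviocytes and 23.6 to 43.8 CPM in chondrocytes and lower in macrophages, at 4.30 to 4.53 CPM (edgeR adjusted p = 7.62e-07 and 4.82e-07). IL16, a chemoattractant for CD4-bearing cells, was at 51.6 to 82.9 CPM in macrophages and 8.24 to 18.2 CPM in the stromal cells.

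Chondrocytes and synoviocytes, both stromal, were separated by named genes of each kind. Higher in synoviocytes were IL1RL1, IL33, IL18, IL18R1, IL7, IL15RA, IL1RAP, IL13RA2, IL12RB1 and IL16. IL18 differed by 4.17 ± 0.52 on the log2 scale (edgeR adjusted p = 0.000371) and IL7 by 1.69 ± 0.30 (adjusted p = 0.00289). Higher in chondrocytes were IL21R, IL4R, IL10RB, IL27RA, IL1R2, IL6, IL36G, IL1A and IL1B. IL21R was at 19.4, 33.0 and 17.5 CPM in chondrocytes and 4.20, 5.99 and 4.03 CPM in synoviocytes, a log2 difference of 2.29 ± 0.25 (adjusted p = 0.000164). IL6 was higher by 1.42 ± 0.41 (adjusted p = 0.0363), IL36G by 2.60 ± 0.77 (0.0407), IL1A by 4.63 ± 1.37 (0.0412) and IL1B by 4.79 ± 1.40 (0.0394), but the groups overlapped in these 4 genes because of the chondrocyte library given medium of donor ORC. Without that library the adjusted p-values were 5.3e-05, 0.000281, 0.00238 and 0.00188, and the number of genes called was 25 rather than 19. Without any 1 of the other 5 libraries none of these 4 was called, with adjusted p-values of up to 0.133 for IL6. With the MSC donor as a block IL6 was called (adjusted p = 0.0331), and IL36G, IL1A and IL1B were not (0.0655, 0.0739 and 0.0715).

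What the cytokines alone did was read from single libraries, 1 with IL-1β and TNF-α only and 1 with no addition per cell type, so these are differences between libraries with no replicate check. In synoviocytes 10 of 40 interleukin genes with at least 10 counts in 1 of the libraries were over 2-fold higher with cytokines and 3 over 2-fold lower, where 4.3% and 3.95% of all genes passed. In chondrocytes 12 of 36 were higher and 4 lower, where 6.78% and 7.59% of all genes passed. In macrophages 5 of 53 were higher and 0 lower, where 2.23% and 1.29% of all genes passed. Most of the 5 had few counts. With cytokines and without, IL36G had 100 and 40, IL17RB 21 and 10, IL11 23 and 12, IL22 13 and 2, and IL17D 10 and 4. The 95% exact intervals of the ratio began at 0.97 for IL11 and 0.765 for IL17D. IL6 was at 1343 CPM with cytokines and 260 CPM without in synoviocytes, a ratio of 5.16 (95% exact interval 5.04 to 5.29), and at 4581 and 207 CPM in chondrocytes, a ratio of 22.1 (21.5 to 22.7). In macrophages IL6 was at 63.5 CPM with cytokines and 94.9 CPM without. IL11 was 19.7 times higher with cytokines in synoviocytes (17.8 to 21.8) and 77.7 times in chondrocytes (71.4 to 84.8). IL36G was at 89.1 against 0.695 CPM in chondrocytes, a ratio of 128 (81.1 to 217), and at 9.91 against 0.316 CPM in synoviocytes, a ratio of 31.4 (16.8 to 66.2).

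The IL-1 ligands themselves were among the genes that differed in chondrocytes. IL1A had 433 counts with cytokines and 0 without, which is at least 94.6-fold higher, and IL1B had 568 and 2, a ratio of 186 (95% exact interval 51.3 to 1540). In macrophages IL1B was at 99.9 CPM with cytokines and 173 CPM without, and IL1RN at 151 and 128 CPM. Decoys and receptors went both ways in the stromal cells. IL13RA2 was at 55.5 against 11.6 CPM in synoviocytes and 29.4 against 2.66 CPM in chondrocytes. IL1RL1 was at 25.6 against 3.85 CPM in synoviocytes, while in chondrocytes it had no read in either library. IL2RA, the high-affinity chain of the IL-2 receptor, was at 4.14 against 1.42 CPM in synoviocytes and 6.57 against 0.309 CPM in chondrocytes. The decoy IL18BP was at 7.002 against 10.11 CPM in chondrocytes, a ratio of 0.693 (0.583 to 0.823), and at 7.73 against 6.73 CPM in synoviocytes. IL1R1 had ratios of 0.684 in chondrocytes and 0.883 in synoviocytes, and IL6ST of 0.659 and 0.763. Lower with cytokines was also IL16, at 13.97 against 38.3 CPM in synoviocytes and 6.55 against 43.9 CPM in chondrocytes, while macrophages had 56.5 and 54.4 CPM. IL33 was at 0.943 against 2.68 CPM in synoviocytes. With MSC-CM added to the cytokines, the 9 synoviocyte libraries had IL6 at 671 to 1260 CPM and IL16 at 15.0 to 18.2 CPM, between the 2 single libraries. The 9 chondrocyte libraries had IL6 at 863 to 4460 CPM, all below the cytokine-only value. Other genes went above that value in some libraries. In chondrocytes IL11 reached 1830 CPM against 1610 CPM with cytokines only, IL36G 99.5 against 89.1, IL1A 13.7 against 10.9 and IL1B 16.0 against 14.4 CPM. In synoviocytes IL11 reached 334 against 250 CPM and IL13RA2 74.7 against 55.5 CPM.

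**Figure D3:**
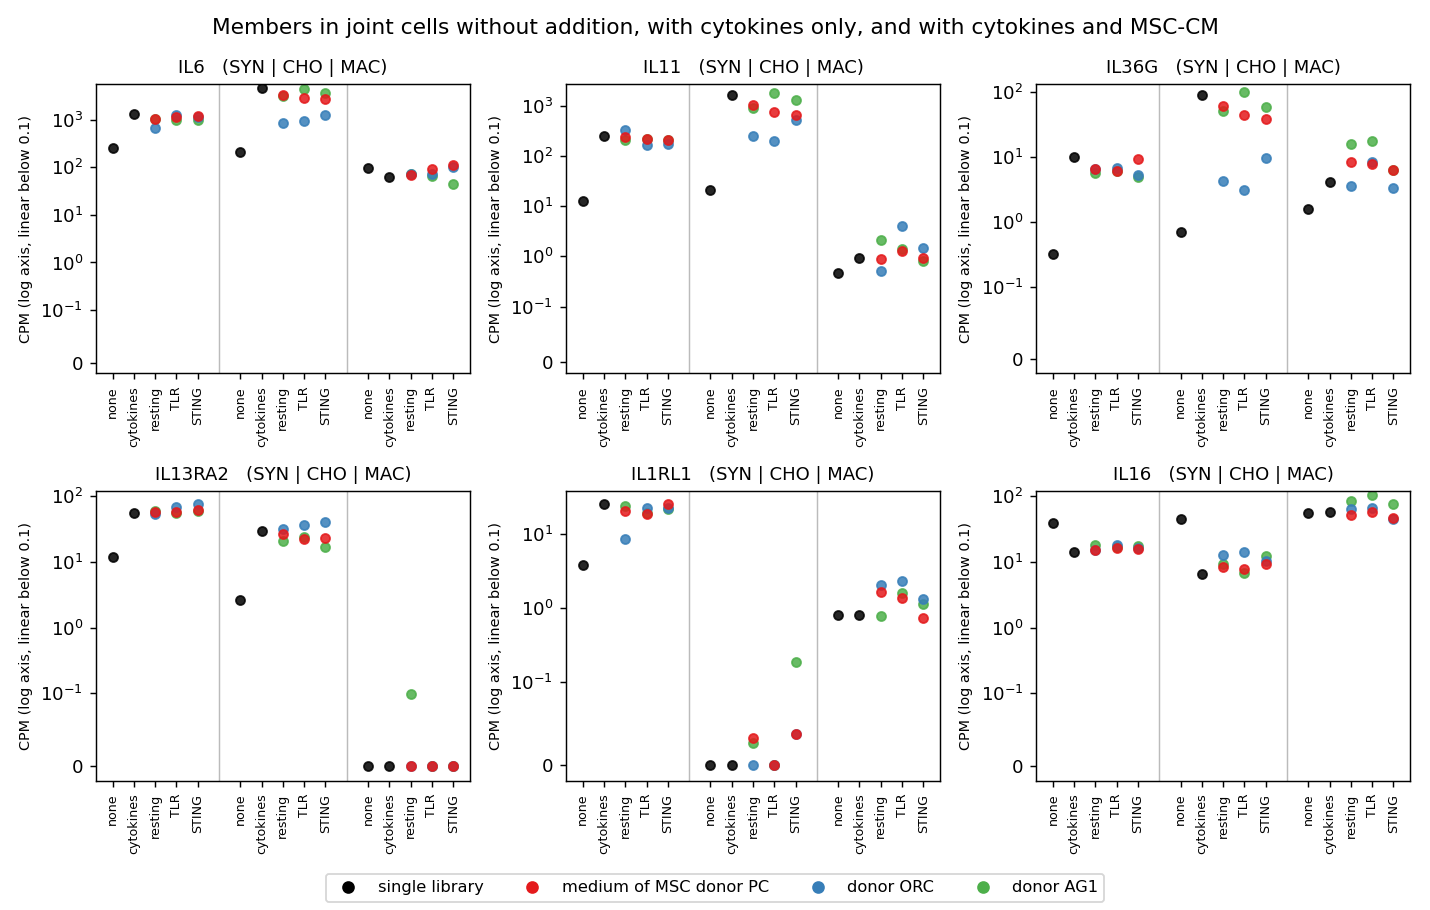
CPM (log axis, linear below 0.1) of IL6, IL11, IL36G, IL13RA2, IL1RL1 and IL16 in every joint cell library, with synoviocytes, chondrocytes and macrophages side by side in each panel and points coloured by the MSC donor of the medium (black for the single libraries). In chondrocytes the blue points of donor ORC lie below the others for IL6, IL11 and IL36G in all 3 media.

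Chondrocyte libraries were next set out by the donor of the MSC medium. Of the 46 genes tested there, 21 (45.7%) were lowest in the ORC library in all of resting MSC-CM, TLR-MSC-CM and STING-MSC-CM, where 26.9% of all genes were. This pattern was noticed in the data, so it is given as a description. IL6 was at 863, 960 and 1241 CPM in the ORC libraries and at 2776 to 4460 CPM in the other 6, and IL11 at 250, 196 and 525 CPM against 645 to 1830 CPM. IL36G was at 4.17, 3.10 and 9.44 CPM against 37.6 to 99.5 CPM. IL1A had no read in any ORC library and 1.47 to 13.7 CPM in the other 6, and IL1B was at 0, 0 and 0.26 CPM against 3.76 to 16.0 CPM. None of these genes overlapped between the ORC libraries and the rest.

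Among the receptors, IL4R was at 371, 361 and 433 CPM in the ORC libraries and 559 to 696 CPM in the other 6, and IL10RB at 128 to 140 against 201 to 222 CPM. A smaller set, 7 of 46 genes, was highest with ORC medium in all 3 media, where 18.9% of all genes were. It held IL1R1, at 67.6 to 74.7 against 34.1 to 47.8 CPM, IL13RA2, at 31.1 to 39.7 against 16.7 to 26.2 CPM, and IL21R, at 29.5 to 37.4 against 17.5 to 23.0 CPM. For IL6, IL11, IL1A, IL36G, IL4R, IL10RB and IL1R1 the ORC libraries lay nearer on the linear CPM scale to the library with no addition than to that with cytokines only. On a log scale the 3 ORC values of IL11 were nearer to cytokines only, as was 1 ORC value each of IL6 (1241 CPM) and IL36G (9.44 CPM). IL13RA2, IL6ST, IL18BP and IL16 were the other way, with all 3 ORC libraries nearer to cytokines only. IL13RA2 was at 29.4 CPM with cytokines only and 2.66 CPM with no addition. IL6ST was at 431 to 449 CPM in the ORC libraries, 500 CPM with cytokines only and 758 CPM with no addition. IL18BP was at 4.68 to 5.46, 7.002 and 10.11 CPM in the same order. The genes named here were picked, and nearness was not counted over all 46 genes. The transcription factor SOX9, a chondrocyte gene, moved with the split between the ORC libraries and the other 6. It was at 42.1 to 67.6 CPM in the ORC libraries, 7.53 to 10.6 CPM in the other 6 and 48.8 CPM with no addition. ACAN did not follow the split, at 12.5 to 21 CPM in the ORC libraries, 7.07 to 16 CPM in the other 6 and 101 CPM with no addition. The part of cell state in these values was not tested. Synoviocytes by the labels received media of the same 3 donors. There IL6 with resting MSC-CM was at 671 CPM for ORC and at 1045 and 1023 CPM for AG1 and PC. With TLR-MSC-CM it was at 1260 CPM for ORC and at 1004 and 1150 CPM for AG1 and PC. With STING-MSC-CM the values were 1160 CPM for ORC and 991 and 1209 CPM for AG1 and PC. The part of the donor medium in the chondrocyte values was not tested.

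**Figure D4:**
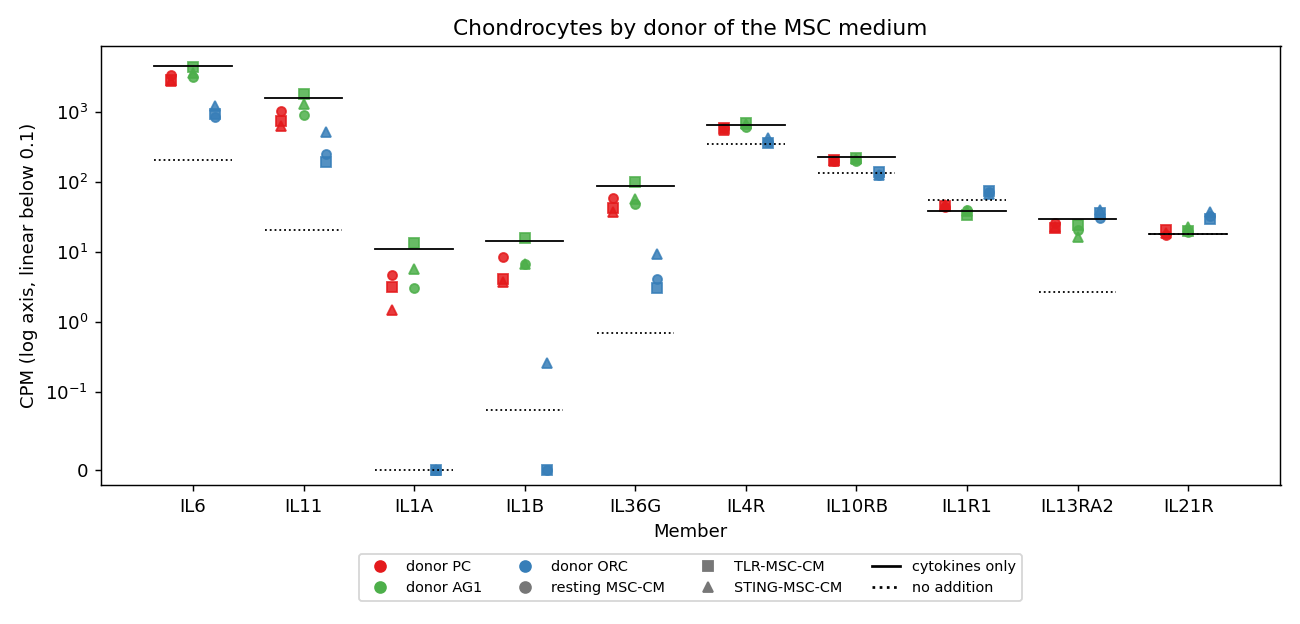
CPM (log axis, linear below 0.1) of 10 genes in the 9 chondrocyte libraries given MSC-CM, coloured by MSC donor and shaped by medium, with lines for the single libraries with cytokines only (solid) and no addition (dotted). The blue ORC points are below the others for IL6, IL11, IL1A, IL1B, IL36G, IL4R and IL10RB and above them for IL1R1, IL13RA2 and IL21R.

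Activation of the MSC themselves was compared next, to see which interleukin genes the agonists change. None of the 47 interleukin genes tested was called by edgeR at an adjusted p under 0.05 with the TLR3 agonist, with the STING agonist, between the agonists or under the CpG label, and the background over all genes was 0% in each. At an unadjusted p under 0.05 there were also 0 interleukin genes, where 1.15%, 2.1%, 0.242% and 0.305% of all genes passed. MSC libraries pair by donor, and with the donor as a block 5 (10.6%), 4 (8.51%), 2 (4.26%) and 3 (6.38%) interleukin genes had an unadjusted p under 0.05, where 3.2%, 9.48%, 2.58% and 1.43% of all genes passed. None was called after adjustment. DESeq2 called 0 interleukin genes in these comparisons and 52 genes of all with the TLR3 agonist and 95 with the STING agonist. In MSC 18 of 35 receptor chains and 10 of 38 ligands were over the floor in every library. IL4R was at 150 to 248 CPM over the 12 libraries, IL6ST at 114 to 340 CPM, IL13RA1 at 76.6 to 149 CPM and IL10RB at 56.2 to 109 CPM. IL6 was at 0.0739 to 1.33 CPM, IL1A at 0 in 11 of 12 libraries, and IL10 had no read in 11 of 12.

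Donor 92 was highest in all 4 conditions for 6 of 47 genes (12.8%) and lowest for 6, where over all genes the shares were 17.6% and 15.6%. IL11 was at 120, 6.72 and 19.5 CPM in untreated MSC of donors 92, 99 and PC, at 81.4, 5.0 and 10.6 CPM after the TLR3 agonist and at 34.2, 24.1 and 15.6 CPM after the STING agonist. Donor 92 was highest each time, while the order of the other 2 changed. IL22RA1 was lowest in donor 92, at 1.3 CPM against 7.19 and 13.8 CPM in untreated cells and 2.73 against 17.7 and 17.2 CPM after the STING agonist. IL12RB1, the chain shared by the IL-12 and IL-23 receptors, was at 0.186, 1.52 and 0.229 CPM in untreated MSC, 0.455, 2.82 and 2.61 CPM with the TLR3 agonist and 1.02, 2.82 and 2.24 CPM with the STING agonist. It was higher in all 3 donors with each agonist, by 1.67 ± 0.99 on the log2 scale with the TLR3 agonist and 1.63 ± 0.99 with the STING agonist (edgeR adjusted p = 1 for each). With the donor as a block the unadjusted p-values were 0.00721 and 0.00507 and the adjusted ones 0.887 and 0.228. IL13RA1 was at 138, 110 and 132 CPM with the STING agonist and 83.2, 106 and 95.0 CPM without, groups that did not overlap, with an adjusted p of 1. IL15 was at 7.04, 14.05 and 5.33 CPM with the STING agonist and 8.20, 4.04 and 3.37 CPM in untreated cells, higher in 2 of 3 donors. CD68, from the macrophage list, was at 53.3, 324 and 195 CPM after the STING agonist and 12.7, 14.9 and 12.2 CPM in untreated MSC, making up nearly all of the list's sum of 54.6 to 324.5 and 12.9 to 16.3 CPM. Only 3 of the 11 markers were over the floor in every library of each group, CD163 had no read, and PTPRC was at no more than 0.035 CPM after the STING agonist.

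In synoviocytes the question was which interleukin genes respond differently to medium of activated and of resting MSC. None of 47 was called by edgeR in any of the 3 comparisons, where 0% of all genes were, and DESeq2 also called 0. At an unadjusted p under 0.05 there were 6 interleukin genes (12.8%) for TLR-MSC-CM and 4 (8.51%) for STING-MSC-CM, each against resting MSC-CM, and 3 (6.38%) between the activated media, where 10%, 7.6% and 2.02% of all genes passed. IL1R1 was at 53.5, 72.1 and 53.7 CPM with TLR-MSC-CM of AG1, ORC and PC. With resting MSC-CM it was at 51.4, 40.2 and 51.9 CPM, the log2 difference being 0.31 ± 0.12 (edgeR adjusted p = 0.494). The difference came mainly from donor ORC. The decoy receptor IL1R2 was at 0.341, 0.53 and 0.152 CPM with TLR-MSC-CM, at 0.0632, 0 and 0 CPM with resting MSC-CM and at 0.113, 0.0406 and 0 CPM with STING-MSC-CM (adjusted p = 0.494 against resting MSC-CM). These are few reads, and the groups with TLR-MSC-CM and resting MSC-CM did not overlap. IL11 was at 222, 162 and 223 CPM with TLR-MSC-CM, 212, 173 and 212 CPM with STING-MSC-CM and 213, 334 and 239 CPM with resting MSC-CM, with log2 differences of -0.37 ± 0.15 and -0.40 ± 0.15 (adjusted p = 0.494 and 0.634).

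IL18, IL4R and IL17D were the other synoviocyte genes with an unadjusted p under 0.05 and at least 1 CPM with TLR-MSC-CM. IL18 was at 2.5, 2.16 and 3.07 CPM with TLR-MSC-CM and 1.39, 2.13 and 1.86 CPM with resting MSC-CM. IL4R was at 306 to 348 CPM and 280 to 300 CPM, and IL17D at 0.909 to 1.57 and 0.411 to 0.955 CPM. With STING-MSC-CM, IL7 was at 3.04, 3.00 and 3.41 CPM against 3.54, 4.81 and 3.89 CPM in cells given resting MSC-CM, the log2 difference being -0.38 ± 0.17 (edgeR adjusted p = 0.634). The ORC library with resting MSC-CM was apart from the rest in IL1RL1, IL6, IL11 and IL18R1, and without it the log2 difference of IL11 was -0.18 with TLR-MSC-CM and -0.21 with STING-MSC-CM. These 2 values were the smallest over the libraries left out.

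In chondrocytes the same media were compared. None of 46 interleukin genes was called by edgeR in the 3 media comparisons, where 0% of all genes were, and DESeq2 also called 0. Without the ORC libraries edgeR again called 0. At an unadjusted p under 0.05 there were 0 genes for TLR-MSC-CM and 1 for STING-MSC-CM (IL33), each against resting MSC-CM, and 1 between the activated media (IL1RL1), where 0.559%, 0.909% and 0.811% of all genes passed. These libraries also pair by MSC donor. With the donor as a block 1, 2 and 5 interleukin genes had an unadjusted p under 0.05, a share not counted over all genes. They were IL17D, then IL33 and IL22RA1, then IL1A, IL1RL1, IL23A, IL17D and IL34. After adjustment the block called none of them, and 0, 2 and 0 of all 14304 genes. IL33 was at 0.62, 0.223 and 0.188 CPM with STING-MSC-CM and 0.0534, 0.0397 and 0.13 CPM in cells given resting MSC-CM, the log2 difference being 2.14 ± 0.69 (edgeR adjusted p = 1). These were 26, 6 and 5 counts against 2, 1 and 4, and the AG1 library with 26 counts carried most of the difference. IL1A was at 5.72, 0 and 1.47 CPM with STING-MSC-CM, 13.7, 0 and 3.20 CPM with TLR-MSC-CM and 3.10, 0 and 4.69 CPM with resting MSC-CM for AG1, ORC and PC, so the highest values came with TLR-MSC-CM in AG1 and with resting MSC-CM in PC.

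Macrophages were compared across the same media. Without a donor term edgeR called none of 66, where 0% of all genes were, and at an unadjusted p under 0.05 there were 5 interleukin genes (7.58%) for TLR-MSC-CM and 6 (9.09%) for STING-MSC-CM, each against resting MSC-CM, and 11 (16.7%) between the activated media, where 2.13%, 4.76% and 6.6% of all genes passed. The libraries pair by MSC donor, and with the donor as a block 0, 0 and 3 interleukin genes were called, where 0%, 0.531% and 2.23% of all genes were. The 3 were IL18BP, IL13RA1 and IL16, all in STING-MSC-CM against TLR-MSC-CM. The 3 comparisons share their libraries in pairs.

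IL18BP was at 634, 616 and 640 CPM with STING-MSC-CM of AG1, ORC and PC, at 858, 826 and 779 CPM with TLR-MSC-CM and at 708, 726 and 722 CPM with resting MSC-CM. The groups did not overlap, with STING-MSC-CM lowest and TLR-MSC-CM highest in every donor. The single libraries were at 686 CPM with cytokines only and 817 CPM with no addition. Between the activated media IL18BP differed by -0.34 ± 0.09 on the log2 scale (edgeR adjusted p = 0.704), with an adjusted p of 0.0431 with the donor as a block and 0.00739 by DESeq2. IL13RA1, a chain of the IL-4 and IL-13 receptor, was at 76.2, 107.7 and 99.6 CPM with STING-MSC-CM and 42.2, 72.8 and 87.1 CPM with TLR-MSC-CM, higher in all 3 donors though the groups overlapped (adjusted p = 0.736, and 0.0427 with the block). IL16 was at 76.3, 45.3 and 47.0 CPM with STING-MSC-CM and 103, 66.4 and 56.6 CPM with TLR-MSC-CM, lower in all 3 donors (adjusted p = 0.771, and 0.0427 with the block). With the libraries of AG1 left out the adjusted p-values of IL18BP, IL13RA1 and IL16 were 0.1249, 0.135 and 0.134, with those of ORC left out 0.325, 0.280 and 0.279, and with those of PC left out 0.168, 0.0402 and 0.0991.

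The antagonist IL1RN was at 114, 160 and 216 CPM with STING-MSC-CM, 361, 299 and 293 CPM with TLR-MSC-CM and 335, 210 and 200 CPM with resting MSC-CM. It was lower with STING-MSC-CM than with TLR-MSC-CM in every donor and the groups did not overlap. The single libraries, at 151 CPM with cytokines only and 128 CPM with no addition, lay within the range of STING-MSC-CM. The log2 difference was -0.92 ± 0.24 (edgeR adjusted p = 0.704, and 0.0558 with the block). Left without the AG1 or the PC libraries, the blocked fit gave adjusted p-values of 0.0444 and 0.0425, and without the ORC libraries 0.330. IL1B, whose action IL1RN blocks, was at 140, 232 and 78.8 CPM with STING-MSC-CM, 125, 224 and 90.1 CPM with TLR-MSC-CM and 411, 413 and 77.1 CPM with resting MSC-CM for AG1, ORC and PC. It was lower with each activated medium in AG1 and ORC and not in PC. The log2 difference from resting MSC-CM was -1.09 ± 0.59 with TLR-MSC-CM and -1.01 ± 0.59 with STING-MSC-CM (adjusted p = 0.999 and 0.907, and 0.775 and 0.1755 with the block). IL1A followed IL1B library by library, at 15.5, 25.1 and 10.6 CPM, 11.9, 26.4 and 10.9 CPM, and 44.3, 44.3 and 9.54 CPM.

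**Figure D5:**
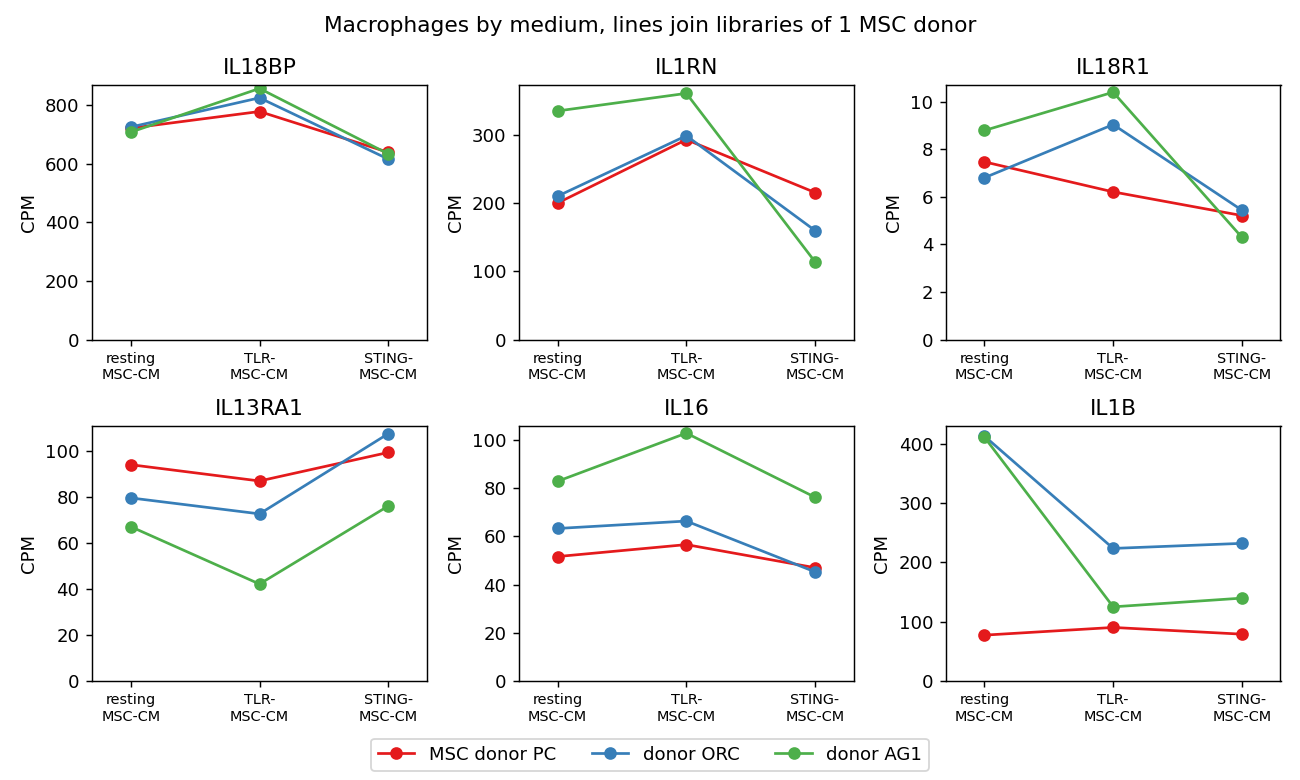
CPM of IL18BP, IL1RN, IL18R1, IL13RA1, IL16 and IL1B in macrophages given resting MSC-CM, TLR-MSC-CM and STING-MSC-CM, with a line for each MSC donor. IL18BP and IL1RN are lower with STING-MSC-CM than with TLR-MSC-CM in all 3 donors, and IL1B is lower with the activated media in AG1 and ORC only.

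Receptors of the macrophage cultures that stood out at an unadjusted p are given as values. IL18R1 was at 4.30, 5.44 and 5.21 CPM with STING-MSC-CM, 10.4, 9.03 and 6.20 CPM with TLR-MSC-CM and 8.79, 6.80 and 7.47 CPM with resting MSC-CM. The STING-MSC-CM libraries were below the other 6 given MSC-CM, though not below the single libraries at 4.58 and 4.32 CPM, with log2 differences of -0.73 ± 0.19 from TLR-MSC-CM and -0.64 ± 0.19 from resting MSC-CM (edgeR adjusted p = 0.704 and 0.907). IL17RC was at 121, 109 and 117 CPM with STING-MSC-CM and at 128 to 173 CPM in the other 6 libraries given MSC-CM. Both single libraries had IL17RC at 117 CPM. IL17RE, a chain of the IL-17C receptor, was at 1.28, 0.883 and 0.773 CPM with STING-MSC-CM, 2.95, 1.37 and 1.60 CPM with TLR-MSC-CM and 1.16, 1.19 and 0.983 CPM with resting MSC-CM. IL23A was at 4.45, 3.88 and 8.24 CPM with STING-MSC-CM and 20.9, 7.29 and 8.65 CPM with TLR-MSC-CM, most of the difference lying in the AG1 library.

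Against resting MSC-CM, IL17RB was at 1.56, 2.00 and 1.47 CPM with TLR-MSC-CM and 0.792, 1.06 and 0.638 CPM without, and IL9R at 1.61, 1.47 and 1.21 CPM and 1.09, 0.765 and 0.744 CPM. IL15 was at 14.7, 18.3 and 14.1 CPM with TLR-MSC-CM and 19.5, 29.4 and 15.5 CPM with resting MSC-CM. IL15RA was at 23.7, 32.1 and 37.8 CPM with STING-MSC-CM and 23.6, 22.1 and 23.6 CPM in cells given resting MSC-CM, the log2 difference being 0.42 ± 0.19 (edgeR adjusted p = 0.907). Summed T cell markers were at 492 CPM in the AG1 library with TLR-MSC-CM, 299 and 334 CPM in the other 2 libraries of that medium, 270 to 299 CPM with STING-MSC-CM and 281 to 324 CPM with resting MSC-CM. In that AG1 library natural killer cell markers were at 96.9 CPM against 34.4 to 61.3 CPM in the other 8 given MSC-CM. It also had the highest IL4, IL21, IL23A, IL2RB and IL18RAP of the 9, at 7.99, 10.7, 20.9, 183 and 12.03 CPM. The same library had the highest IL18BP, IL1RN and IL16 of the 9, at 858, 361 and 103 CPM, and the lowest IL13RA1, at 42.2 CPM. The part of lymphocytes in the differences between media was not tested. Without the 3 AG1 libraries no interleukin gene was called without the block, and with it 1 was, IL1RN.

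With the donor as a block, macrophage genes with an unadjusted p under 0.05 numbered 5 higher (7.58%) and 7 lower (10.6%) for TLR-MSC-CM against resting MSC-CM, where 3.05% and 3.22% of all genes passed. For STING-MSC-CM against the resting medium there were 4 higher (6.06%) and 13 lower (19.7%), where 7.24% and 6.25% passed, and with STING-MSC-CM against TLR-MSC-CM 9 higher (13.6%) and 14 lower (21.2%), where 8.84% and 7.51% passed. The 14 included IL36G, IL1R2, IL2RB, IL18RAP and IL34, and the 9 included IL10RA, IL6ST, IL1RAP, IL7 and IL15. Besides IL13RA1, IL16 and IL18BP none of these passed the adjustment.

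Whether a medium acted differently in the 3 joint cell types was tested by an interaction term. None of 69 interleukin genes was called for TLR-MSC-CM or STING-MSC-CM, where 0% of all genes were. The smallest unadjusted p-values belonged to IL1R2 for TLR-MSC-CM (0.00827) and IL33 for STING-MSC-CM (0.0174), each with an adjusted p of 1. The signalling partners of the interleukins, such as Janus kinases, STAT factors and adaptors, were counted from a list of 47 genes, of which 42 were in the tables. None was called by edgeR in the MSC or media comparisons. Between cell types 29 of 42 were higher and 7 lower in macrophages than in synoviocytes, beside 36.6% and 35.1% of all genes. Against chondrocytes 24 were higher and 10 lower in macrophages, beside 36.6% and 34.9%, and 13 were higher and 1 lower in chondrocytes than in synoviocytes, beside 8.31% and 9.84%.

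The counts of some genes could include reads of a neighbour. The strand setting of the counting is not given in the sources used here. In the RefSeq horse annotation, whose assembly differs from that of the count tables and was used for names and neighbours only, 9 of the 76 matched interleukin genes overlap another protein-coding gene: IL1A with IL37, IL13RA2 with LRCH2, IL6R with SHE, IL27 with APOBR, IL24 with FCMR, IL17RB with ACTR8 and CHDH, and also IL1RAPL1, IL1RAPL2 and IL37. Their values carry that uncertainty.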

How the data were processed

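The authors trimmed reads with Cutadapt 1.12, aligned them with STAR to EquCab3.0, counted them per gene with HTSeq 0.11.0 and deposited whole-number counts of protein-coding genes without normalization. Library totals ran from 23525704 to 54103873. Genes whose counts summed to at least 10 in a fit were tested with edgeR 4.0.16 in R 4.3.3 (TMM scaling, quasi-likelihood test, Benjamini-Hochberg adjustment over all genes, threshold 0.05), separately for MSC and each joint cell type. CpG was fitted with all 12 MSC libraries, cell types on their resting MSC-CM libraries, and the interaction on the 27 replicated joint cell libraries. Errors are the log2 fold change divided by the root of the test's F value. DESeq2 1.42.0, other scaling and filters, a donor block and leaving out libraries were alternatives. Fits were tested on simulated data. CPM are counts divided by the library total.

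The members, roles and lists were chosen with earlier results of these data known. Genes were named if called in an agonist or medium comparison or, with none called, if among the 5 with the smallest unadjusted p under 0.05 and a group mean of at least 1 CPM, if among the 5 largest called differences per direction between cell types at 1 CPM or more, or if in a set list of well-known interleukin genes. Any other gene named was chosen after its values were seen.

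Libraries of the same MSC donor are paired by the labels. The deviations from the group means correlated between them with a median of 0.821 for MSC, 0.44 for macrophages, 0.676 for chondrocytes and 0.0666 for synoviocytes. The labels give the single libraries a donor name although their protocols describe no MSC medium, so they were grouped by their description. The authors' comparisons were not used.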

Additional observations from a re-analysis of the deposited data

How the results depend on the processing

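Under other scaling, filters, DESeq2, the donor as a replicate block and libraries left out, the number of interleukin genes called was within 1.5 times the reported one in 247 recomputed counts and higher in 4. All 4 were for macrophages, STING-MSC-CM against TLR-MSC-CM, where edgeR without the block called 0. DESeq2 called 1 gene and the donor block 3. The block called 1 gene without the AG1 libraries, 3 without the PC libraries and 0 without the ORC libraries, alternatives chosen after seeing the data. The cause was not tested. Most reported counts are 0, and a count that stays at 0 with 3 libraries a group says little about stability. Of the log2 differences of named genes, 611 kept their side of the threshold, 23 lost their call and 5 gained one, and none changed direction. The 23 were IL1A, IL1B, IL36G and IL6 in chondrocytes against synoviocytes, under the paired fit or with 1 library left out. Over the 78 refits that left out 1 library, genes called between chondrocytes and synoviocytes ran from 14 to 25, between macrophages and synoviocytes from 55 to 61 and between macrophages and chondrocytes from 53 to 59. In these refits a group left with 2 libraries borrows its spread from the others. Genes with few counts, such as IL12B in macrophages, IL33 and IL1RL1 in chondrocytes and IL1R2 in synoviocytes, are limited by depth.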
